A study of Sus scrofa with 24 samples.

Results

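The genes described here belong to the matrix metalloproteinase (MMP), tissue inhibitor of metalloproteinases (TIMP), ADAM, ADAMTS, cathepsin and serpin families. They were taken by symbol from the array's own gene names, without the cathepsins CTSB and CTSK and the serpins SERPINE2 and SERPINH1. This gave 35 genes of 6056 with a symbol: 8 MMPs, 2 TIMPs, 9 ADAMs, 4 ADAMTS proteases, 3 cathepsins and 9 serpins. One probe stood for each gene, the brightest over all samples.

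The samples were total RNA of vein wall of pigs with a haemodialysis graft placed between an artery and a vein, a conduit whose venous end tends to narrow. The 6 groups were the venous anastomosis at day 5 and at day 14 after placement, the vein segment downstream of it at day 5 and at day 14, and an external jugular vein as the control at day 5 and at day 14. Each group had 4 samples, labelled as biological replicates 1 to 4. The labels give no strain, age, sex or graft material, and leave unstated whether samples that share a number came from 1 animal, between sites or between days. The tissue was a bulk sample, so fewer cells of a type and less RNA per cell cannot be told apart.

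MMPs are zinc proteases that cut collagens, elastin and other matrix proteins, and TIMPs bind and block them. ADAMs are membrane proteases that shed growth factors, cytokines and receptors from the cell surface, while ADAMTS enzymes are secreted and cut proteoglycans and procollagens. Cathepsins are mainly lysosomal proteases of macrophages and other cells, and serpins are inhibitors that trap serine proteases such as thrombin and granzymes. In an injured vein wall these families are known for remodelling matrix while smooth muscle cells and leukocytes move into the forming neointima.

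RNA was hybridised on 16 two-colour Agilent pig arrays, and values are log2 intensities after background correction and normalization. All jugular controls were labelled with Cy3 and all graft sites with Cy5, so dye and graft site against control cannot be told apart. Between 57.0% and 74.0% of probes were well above background in replicates 1 and 2, and between 70.1% and 80.2% in replicates 3 and 4, whose files name another protocol version. The number of arrays limits the precision. Contractile smooth muscle and endothelial marker genes were measured at every site. Jugular control replicate 2 at day 14 stood apart: its mean log2 level over 10 adipocyte markers was 15.05, against 9.71 to 10.83 in the other 3 controls of that day, and over 8 contractile markers 12.19 against 14.57 to 15.43. The adipocyte level was also high at day 14 in anastomosis replicate 3, at 14.55 against 10.43 to 11.20 in the other 3 samples, and in downstream replicates 2 and 4, at 14.43 and 13.37 against 9.77 and 11.30. Refits without each of these samples were chosen after seeing the data, and the part of fat in the wall sample was not tested.

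The deposited value table did not follow the scanner files for replicate 4. After each probe's mean was taken out, all 18 columns of replicates 1 to 3 correlated best with the scanner values of their own sample, with r from 0.62 to 0.79. None of the 6 columns of replicate 4 did: their own r was 0.01 to 0.49, and another sample's was 0.26 to 0.68. Which of the 2 sources holds replicate 4 was not tested, and the values below come from the scanner files. The calls are therefore also given without replicate 4.

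Of the 35 genes, 29 were well above background in at least 4 samples and were tested together with all other features, 33538 in all. The 6 others were not well above background in any sample: the sperm surface proteins ADAM2, ADAM5 and ADAM18, the thyroxine carrier SERPINA7, the serpin SERPINI2, and a probe labelled MMP25. RefSeq assigns the accession of that last probe to MMP20, a tooth enamel protease.

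The clearest differences set the graft sites against the jugular vein. At day 5, 6 of the 29 genes were higher at the anastomosis than in the control and 1 was lower at a Benjamini-Hochberg adjusted p under 0.05 in limma, against 19.3% of all features called in that comparison, 9.07% higher and 10.3% lower. At day 14, 3 of 29 were higher and 0 lower at the anastomosis, against 8.79% of all features, 4.76% higher and 4.03% lower. Downstream, 2 of 29 were higher at day 5, against 8.20% of all features (3.20% higher and 5.01% lower), and 0 of 29 were called at day 14, against 0.909% (0.635% higher and 0.274% lower). At an unadjusted p under 0.05, 10 of the 29 differed at the anastomosis at day 5 and 9 at day 14, against 31.0% and 24.9% of all features. Downstream 7 differed at day 5 and 5 at day 14, against 25.1% and 15.0%. Counted over both directions, the members' shares lay near those of all features. By direction the members' calls leaned to higher, as at the anastomosis at day 5 (6 of 29 against 9.07% higher, 1 of 29 against 10.3% lower). The median difference over the 29 was 0.15 and 0.25 log2 units at the anastomosis at day 5 and day 14, and 0.24 and 0.22 downstream at day 5 and day 14, where the median over all features was 0 to 0.01. With arrays centred on their median and no loess step, the median over all features shifted to between 0.102 and 0.194. That setting called 14 members higher and 0 lower at the anastomosis at day 5, 15 and 1 at day 14, and downstream 12 and 0 at day 5 and 12 and 0 at day 14. It also turned the sign of 7 and 3 members at the anastomosis at day 5 and day 14 and of 7 and 8 downstream, none of them among the 12 calls. Over all features it called 8927 higher and 2122 lower at the anastomosis at day 5, where loess called 3041 and 3445. At day 14 there it called 10304 and 3473 of the 33538 features, and downstream 7200 and 1459 at day 5 and 7855 and 2299 at day 14.

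The groups of 7 members lay wholly above and of 2 wholly below the control at the anastomosis at day 5, against 14.8% of all features with no overlap. At day 14, 3 members lay above and 0 below, against 6.10%. Downstream, 3 lay above and 1 below at day 5, against 7.68%, and 0 at day 14, against 1.93%.

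**Figure D1:**
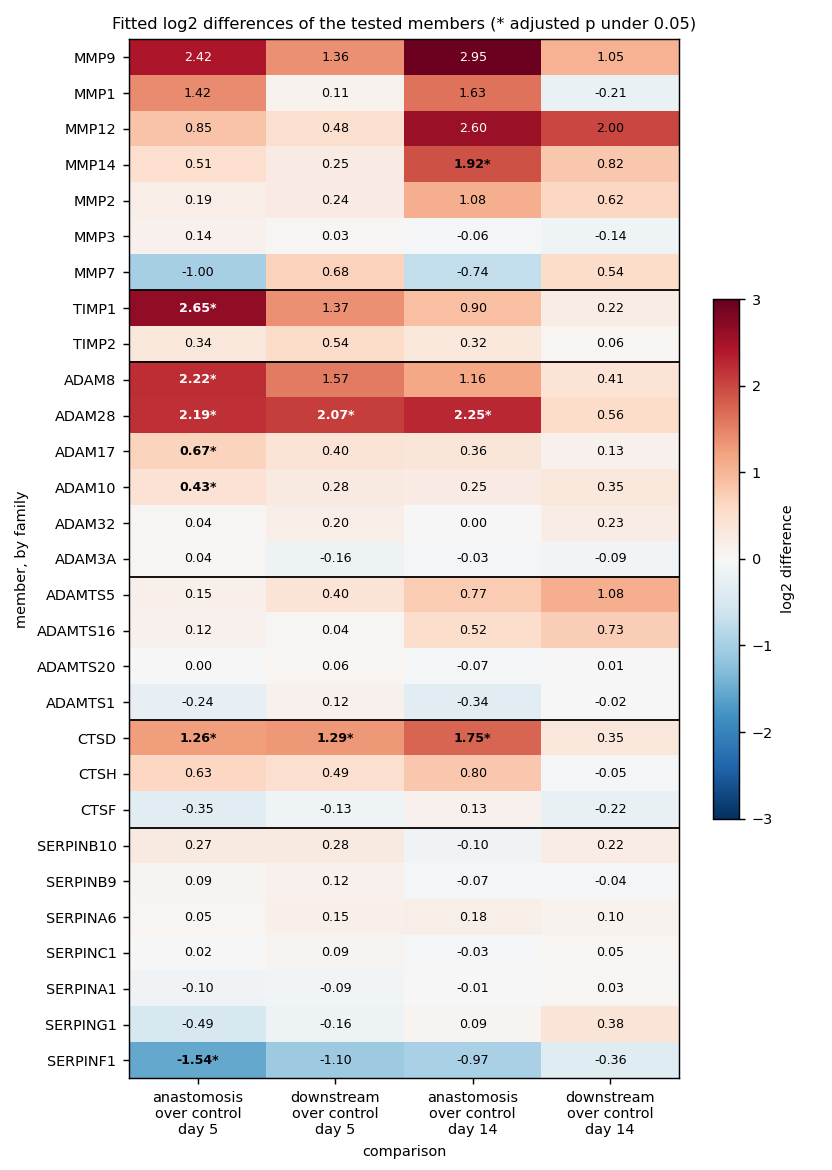
Fitted log2 difference over the jugular control for each of the 29 tested genes, by family, in 4 comparisons (red higher and blue lower at the graft site, scale from -3 to 3). Asterisks mark the 12 differences past an adjusted p of 0.05, 11 higher and 1 lower, and ADAM28 and CTSD carry an asterisk in 3 of the 4 columns.

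The 12 calls fell on 8 genes. ADAM28 and CTSD were called at the anastomosis on both days and downstream at day 5. TIMP1, ADAM8, ADAM17, ADAM10 and, in the other direction, SERPINF1 were called at the anastomosis at day 5, and MMP14 there at day 14. Every one of the 12 kept its sign when any replicate number was left out, but only 4 stayed past the threshold without replicate 4: ADAM28, TIMP1 and ADAM17 at the anastomosis at day 5 and MMP14 there at day 14. Without replicates 1, 2 and 3 the number past the threshold was 8, 9 and 6. Within replicates 1 and 2 alone 0 of the 12 passed, and within replicates 3 and 4 alone 7 did, with the same sign in all 12 in both. Calls over all 33538 features moved as well. Without replicate 4 they were 1200 higher and 1212 lower at the anastomosis at day 5. At day 14 there they were 112 and 27, and downstream at day 5 they were 2 and 0. In the same order, replicates 1 and 2 alone gave 0 and 2, 1 and 0, and 0 and 0. Replicates 3 and 4 alone gave 1710 and 2279, 1252 and 2024, and 1235 and 2137. Leaving out replicate 1 gave 2161 and 2567, 907 and 802, and 1801 and 2652. Leaving out replicate 2 gave 2436 and 2710, 1419 and 1637, and 166 and 206. Leaving out replicate 3 gave 1794 and 2034, 1003 and 639, and 5 and 1.

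**Figure D2:**
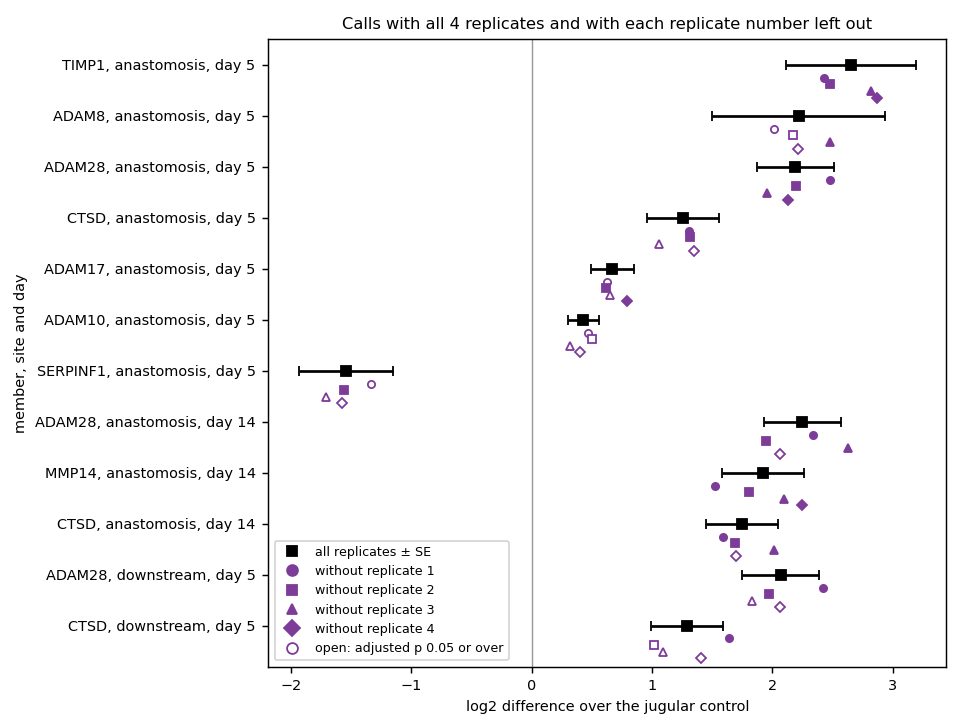
Log2 difference over the jugular control for the 12 calls, with all 4 replicates (black squares, ± SE) and with each replicate number left out (purple markers, open where the adjusted p was 0.05 or over). All markers of a row lie on the same side of 0, and the markers without replicate 4 are open in 8 of the 12 rows.

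TIMP1, a secreted inhibitor of most MMPs, showed the greatest fitted difference among the calls. It read 15.81, 14.76, 14.51 and 14.88 at the anastomosis at day 5, against 12.51, 11.60, 12.37 and 12.89 in the jugular control at day 5. All 4 anastomosis samples lay above all 4 controls, and the difference was 2.65 ± 0.54 log2 units (SE, adjusted p = 0.00419), or 6.28-fold. Downstream at day 5 it read 13.09, 12.87, 13.96 and 14.94, a difference of 1.37 ± 0.54 from the control that did not pass (adjusted p = 0.129).

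At day 14, TIMP1 read 12.74, 12.94, 11.54 and 14.78 at the anastomosis, 10.53, 12.43, 13.20 and 13.10 downstream, and 10.50, 13.20, 12.11 and 12.56 in the control. The 3 groups overlapped, and anastomosis over control was 0.90 ± 0.54 (adjusted p = 0.329). Anastomosis replicate 3, with the high adipocyte level, was the lowest of its group, and without it the difference was 1.54 ± 0.49 (adjusted p = 0.0607). Control replicate 2, also with a high adipocyte level, was instead the highest of its group at 13.20. Downstream replicates 2 and 4, high in that level too, read 12.43 and 13.10, above replicate 1 at 10.53. The part of fat in these TIMP1 levels was not tested. TIMP2, which also takes part in activating MMP2, was 0.34 ± 0.25 and 0.32 ± 0.25 over the control at the anastomosis at day 5 and day 14 and did not pass on either day (adjusted p = 0.406 and 0.470). It read 12.29 to 13.57 at the anastomosis at day 5, 12.46 to 13.47 downstream at day 5 and 11.97 to 13.32 in the control at day 5. At day 14, TIMP2 read 12.58 to 12.97 at the anastomosis, 11.96 to 13.43 downstream and 11.87 to 12.80 in the control.

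The TIMP1 probe was a 60-base oligonucleotide, shown because it carries that difference. One of its 3 frames had no stop codon.
TIMP1: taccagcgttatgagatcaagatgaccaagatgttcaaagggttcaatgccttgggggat

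**Figure D3:**
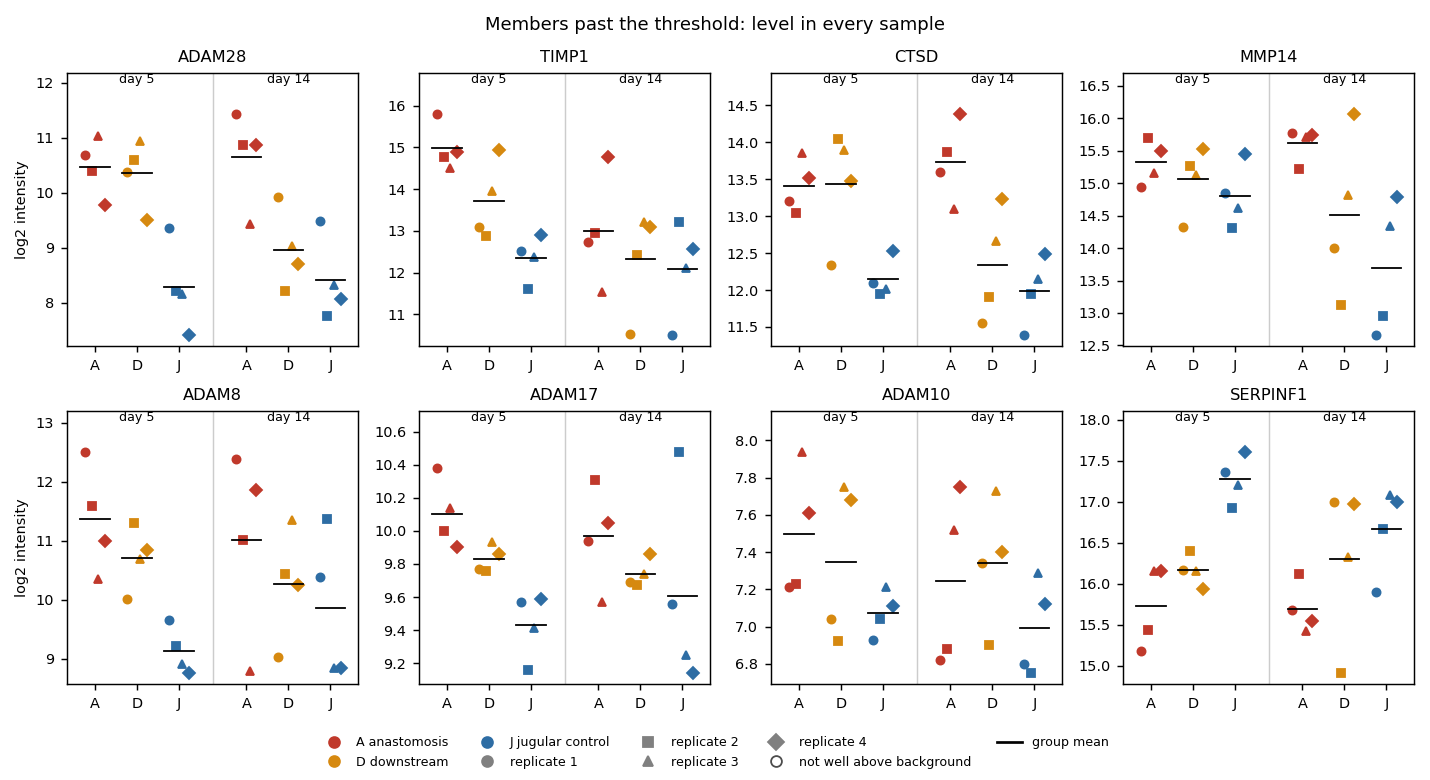
Normalized log2 intensity of the 8 genes with a call in every sample (A anastomosis, D downstream, J jugular control, day 5 left and day 14 right in each panel; marker shapes give the replicate number and black lines the group means). For TIMP1, ADAM28, CTSD, ADAM8 and ADAM17 all day 5 anastomosis samples sit above all day 5 controls, for SERPINF1 all sit below, and the MMP14 groups separate at day 14.

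Among the 7 MMPs tested, MMP14 was called at day 14 and none at day 5. MMP14 is a membrane-bound collagenase that also activates MMP2 at the cell surface. At day 14 it read 15.77, 15.22, 15.71 and 15.74 at the anastomosis, against 12.66, 12.96, 14.34 and 14.79 in the control. The anastomosis samples differed little among themselves and all lay above the controls, with a difference of 1.92 ± 0.34 (adjusted p = 0.00593), or 3.79-fold.

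At day 5, MMP14 read 14.94, 15.69, 15.16 and 15.49 at the anastomosis, against 14.85, 14.31, 14.62 and 15.45 in the control, and the groups overlapped (0.51 ± 0.34, adjusted p = 0.355). Downstream it read 14.33, 15.26, 15.12 and 15.52 at day 5 and 14.00, 13.12, 14.82 and 16.07 at day 14. The downstream difference from the control at day 14 was 0.82 ± 0.34 (adjusted p = 0.277), and the 4 downstream samples of that day spread over almost the whole range of the gene. The change in anastomosis over control between the days was 1.41 ± 0.49 and did not pass (adjusted p = 0.469). In the control itself MMP14 was lower at day 14 than at day 5 in 4 of 4 numbers, by -1.12 ± 0.50 (adjusted p = 1), with numbers not known to pair between days.

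MMP2, the gelatinase that MMP14 activates, read 15.04, 16.35, 16.57 and 16.04 at the anastomosis at day 14, against 14.37, 14.15, 15.40 and 15.76 in the control. The groups overlapped although the anastomosis was higher in 4 of 4 numbers, and the difference of 1.08 ± 0.34 fell short of the threshold (adjusted p = 0.0616). At day 5 it was 0.19 ± 0.34 (adjusted p = 0.785), with 14.55 to 16.14 at the anastomosis against 14.48 to 15.79 in the control. Downstream MMP2 read 14.35 to 16.05 at day 5 and 14.11 to 16.74 at day 14, with differences of 0.24 ± 0.34 and 0.62 ± 0.34 (adjusted p = 0.710 and 0.413).

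MMP9 is the gelatinase known from neutrophils and macrophages. At day 5 it read 15.28, 12.60, 12.76 and 13.36 at the anastomosis, against 12.57, 10.46, 10.54 and 10.76 in the control. No sample of 1 group overlapped the other, yet the difference of 2.42 ± 1.08 did not pass in the fit over all groups (adjusted p = 0.142); with only the 2 groups compared the same difference had an adjusted p of 3.40e-04. At day 14 MMP9 read 16.73, 14.29, 12.59 and 15.83 at the anastomosis, against 12.88, 10.26 and 12.10 in control replicates 2, 3 and 4, the spot of control replicate 1 being an outlier spot that was left out. The groups overlapped, and the difference was 2.95 ± 1.39 (adjusted p = 0.208).

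Downstream, MMP9 read 10.38, 13.52, 12.65 and 13.20 at day 5 and 12.10, 11.87, 15.12 and 12.77 at day 14. Replicate 1 was the lowest downstream sample at day 5, while the anastomosis sample of that number was the highest of its group. The downstream differences from the control were 1.36 ± 1.08 at day 5 and 1.05 ± 1.39 at day 14 (adjusted p = 0.468 and 0.780). The second of these turned to -0.49 without replicate 3.

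MMP12, the macrophage elastase, read 10.16, 8.61, 7.57 and 10.78 at the anastomosis at day 14, against 7.20, 6.62, 6.27 and 6.65 in the control, where replicate 1 was not well above background. All 4 anastomosis samples lay above all 4 controls, and the difference of 2.60 ± 0.77 lay just short of the threshold (adjusted p = 0.0513). Without control replicate 2 it was 3.08 ± 0.84 (adjusted p = 0.0349), and without anastomosis replicate 3, the lowest of its group, 3.55 ± 0.68 (adjusted p = 0.00649). At day 5 the difference was 0.85 ± 0.77 (adjusted p = 0.525), with 7.01, 7.26, 7.50 and 7.66 at the anastomosis against 6.63, 6.68, 6.29 and 6.44 in the control, of which 3 were not well above background.

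Downstream, MMP12 read 8.86, 6.34, 11.44 and 8.11 at day 14 and 6.09, 7.02, 6.86 and 8 at day 5. Replicate 3 was the highest downstream sample at day 14, as it was for MMP9. The downstream difference at day 14 was 2.00 ± 0.77 (adjusted p = 0.236).

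MMP1, the interstitial collagenase, was not well above background in any of the 4 jugular controls at day 5 and was so in all 4 anastomosis samples of that day, which read 10.12, 8.02, 6.97 and 6.83. The measured means were 7.98 at the anastomosis and 6.57 in the control. Each dim control counts at its own signal or the array's lowest reliable one, whichever is higher, and the bound of at least 2.67-fold was here the difference of the 2 means. It did not pass (1.42 ± 0.59, adjusted p = 0.114). The size depended on how background was handled, at 4.92 with processed signals (adjusted p = 0.0086), 2.12 with no background correction (adjusted p = 0.04), 5.46 in the deposited table (adjusted p = 0.00129) and 4.86 in its replicates 1 to 3 (adjusted p = 0.0256). Without replicate 1, whose anastomosis sample was the highest, it was 0.84 (adjusted p = 0.412). Replicates 3 and 4 at the anastomosis reached no more than control replicate 1, which read 6.97. At day 14 MMP1 read 7.68, 8.85, 6.53 and 10.26 at the anastomosis, 5.97, 6.85, 6.47 and 6.70 downstream, and 6.70, 7.62, 6.17 and 6.32 in the control, and anastomosis over control was 1.63 ± 0.59 (adjusted p = 0.102). That difference was 4.34 with processed signals (adjusted p = 0.034), 1.85 with median centring (adjusted p = 0.033), 0.86 without replicate 4 (adjusted p = 0.544) and 2.13 without anastomosis replicate 3 (adjusted p = 0.04).

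MMP7, or matrilysin, was lower at the anastomosis than in the control in 4 of 4 numbers at day 5, by -1 ± 0.84 (adjusted p = 0.480). It read 7, 8.10, 6.34 and 6.66 there, against 7.93, 9.38, 8.01 and 6.78 in the control. Downstream it read 11.75, 7.09, 6.54 and 9.45 at day 5, a spread of over 5 log2 units within the group. MMP3, or stromelysin 1, stayed between 6.29 and 7.39 in all 24 samples, with no difference from the control above 0.14 log2 units in either direction.

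**Figure D4:**
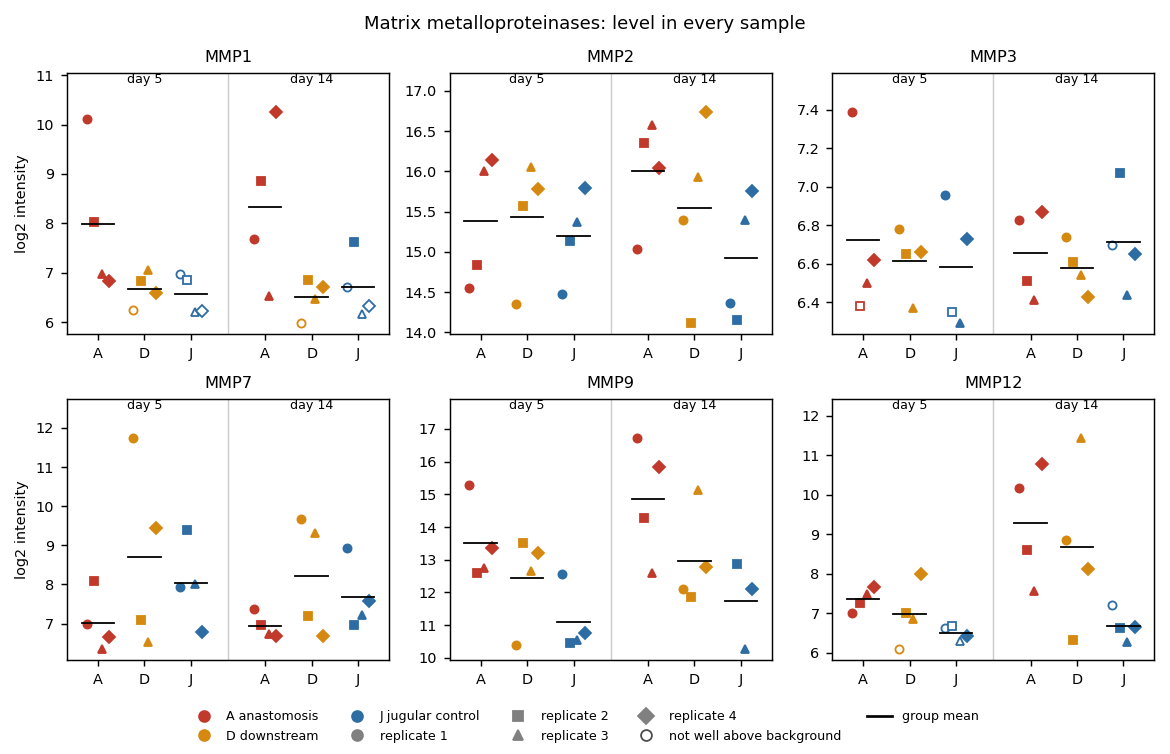
Normalized log2 intensity of 6 MMPs in every sample (same layout as the plot of the called genes; open markers were not well above background). MMP9 and MMP12 samples of 1 group spread over several log2 units, and the open MMP1 markers include all 4 day 5 controls.

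Of the 6 ADAMs tested, 4 were higher at the anastomosis than in the control at day 5, against 9.07% of all features. Only the ADAM28 call held whichever replicate number was left out. ADAM28, a protease first described in lymphocytes, read 10.69, 10.40, 11.03 and 9.78 at the anastomosis, against 9.35, 8.22, 8.15 and 7.41 in the control, with no overlap. The difference was 2.19 ± 0.32 (adjusted p = 7.69e-04), or 4.57-fold. In the downstream vein at day 5 it read 10.38, 10.59, 10.94 and 9.50, also above every control, with a difference of 2.07 ± 0.32 (adjusted p = 0.00472).

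At day 14, ADAM28 read 11.44, 10.87, 9.43 and 10.87 at the anastomosis, 9.92, 8.21, 9.03 and 8.70 downstream, and 9.48, 7.75, 8.33 and 8.06 in the control. Anastomosis over control was 2.25 ± 0.32 (adjusted p = 0.00184), although anastomosis replicate 3 lay just below control replicate 1. Without that anastomosis sample it was 2.65 (adjusted p = 3.61e-04). Downstream over control was 0.56 ± 0.32 (adjusted p = 0.435). Without replicate 4 the adjusted p was 0.0597 at the anastomosis at day 14 and 0.116 downstream at day 5.

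A second, dimmer ADAM28 probe, well above background in 11 samples, was 0.40 ± 0.13 higher at the anastomosis than in the control at day 5 (adjusted p = 0.0427). Both probes moved in the same direction with very different sizes. The dimmer probe had 1 frame without a stop codon and is shown because the size of the ADAM28 difference depends on the probe; the brighter one had none.
ADAM28, dimmer probe: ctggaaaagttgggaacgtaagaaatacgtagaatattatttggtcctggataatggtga

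ADAM8, a protease of neutrophils and macrophages, read 12.51, 11.58, 10.36 and 11 at the anastomosis at day 5, against 9.66, 9.22, 8.92 and 8.76 in the control. The groups did not overlap, and the difference was 2.22 ± 0.72 (adjusted p = 0.0429). Without replicate 1, 2 or 4 the adjusted p was 0.0910, 0.136 and 0.167. Downstream at day 5 ADAM8 read 10.01, 11.30, 10.69 and 10.84, also above every control, and the difference of 1.57 ± 0.72 did not pass (adjusted p = 0.191).

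At day 14 ADAM8 read 12.39, 11.02, 8.79 and 11.86 at the anastomosis, against 10.39, 11.36, 8.84 and 8.85 in the control (1.16 ± 0.72, adjusted p = 0.351). Control replicate 2 was among the high samples and anastomosis replicate 3 the lowest of all 8, and without the second of these the difference was 1.91 ± 0.69 (adjusted p = 0.0954). Downstream it read 9.04, 10.44, 11.35 and 10.25 at day 14, 0.41 ± 0.72 over the control (adjusted p = 0.842). Of the 2 neutrophil markers tested, CXCR2 and PGLYRP1, 1 was lower at the anastomosis than in the control at day 5 (PGLYRP1) and both at day 14, and both were lower downstream on each day. Their mean level was 8.30 to 9.03 at the anastomosis at day 5, against 8.77 to 9.53 in the control, and 7.62 to 9.29 at day 14, against 9.29 to 10.94. Their part in the MMP9 and ADAM8 results was not tested.

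ADAM17, the enzyme that sheds tumour necrosis factor from cells, read 10.38, 10, 10.14 and 9.90 at the anastomosis at day 5, against 9.57, 9.16, 9.41 and 9.59 in the control, with no overlap. The difference was 0.67 ± 0.18 (adjusted p = 0.02), or 1.59-fold. Its 2 other probes were 0.40 ± 0.16 and 0.20 ± 0.09 higher and did not pass (adjusted p = 0.0956 and 0.148). Downstream at day 5 ADAM17 read 9.77, 9.76, 9.93 and 9.86 and was 0.40 ± 0.18 over the control (adjusted p = 0.193).

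At day 14 control replicate 2 read 10.48 for ADAM17, against 9.56, 9.25 and 9.14 in the other controls, 9.94, 10.31, 9.57 and 10.05 at the anastomosis, and 9.67 to 9.86 downstream. Anastomosis over control was 0.36 ± 0.18 (adjusted p = 0.245) with that control and 0.61 ± 0.15 (adjusted p = 0.0248) without it. The 2 probes not used are shown because they gave smaller differences than the brightest, which had no frame free of stop codons and contained AATAAA, the polyadenylation signal.
ADAM17, difference 0.40: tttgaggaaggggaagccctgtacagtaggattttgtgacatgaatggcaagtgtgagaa
ADAM17, difference 0.20: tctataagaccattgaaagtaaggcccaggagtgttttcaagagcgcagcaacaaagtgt

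ADAM10, which sheds Notch and cadherins, had the smallest called difference, 0.43 ± 0.13 at the anastomosis at day 5 (adjusted p = 0.0362). It read 7.21, 7.23, 7.94 and 7.61 there, against 6.93, 7.04, 7.21 and 7.11 in the control. The groups touched at 7.21, and the call was lost without any 1 of the 4 replicate numbers (adjusted p = 0.0506 to 0.261). Of 5 housekeeping genes tested, 3 were also higher in this comparison, with a median difference of 0.38 log2 units, close to that of ADAM10. At day 14 ADAM10 read 6.82 to 7.75 at the anastomosis and 6.75 to 7.29 in the control (0.25 ± 0.13, adjusted p = 0.259), and downstream it read 6.92 to 7.75 at day 5 and 6.90 to 7.73 at day 14. Its probe is shown as the one behind this call, and 2 of its frames had no stop codon.
ADAM10: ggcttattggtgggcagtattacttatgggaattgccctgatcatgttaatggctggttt

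The remaining ADAMs, ADAM32 and ADAM3A, known mainly from testis, differed from the control by at most 0.23 log2 units in any of the 4 control comparisons, and none passed.

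**Figure D5:**
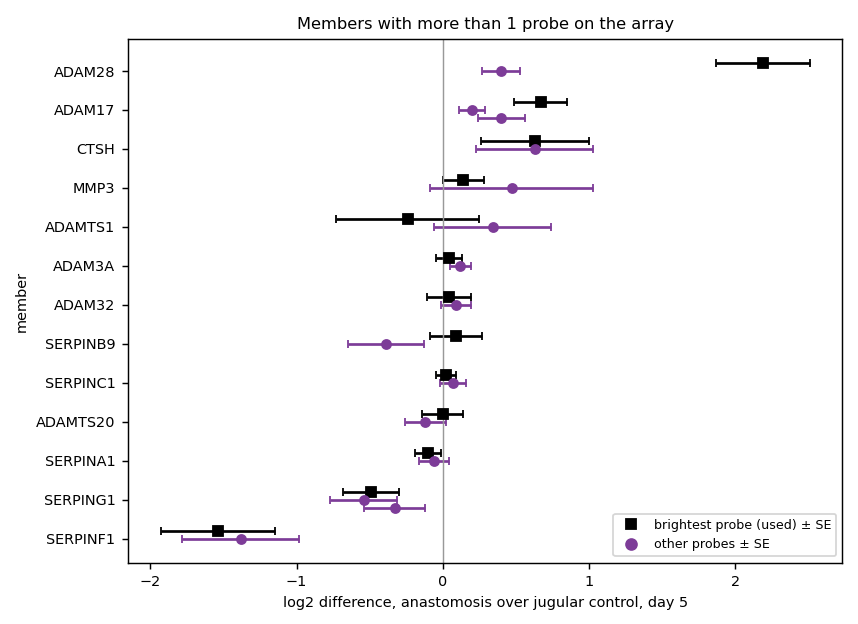
Log2 difference of anastomosis over jugular control at day 5 for the 13 genes with more than 1 probe (black squares, brightest probe; purple circles, other probes; bars, SE). The 2 ADAM28 probes lie far apart at 2.19 and 0.40, those of CTSH coincide at 0.63, and those of ADAMTS1 fall on opposite sides of 0.

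None of the 4 ADAMTS proteases passed in any comparison. ADAMTS1, which cuts versican and aggrecan, read 13.15, 12.85, 13.28 and 13.40 at the anastomosis at day 5, against 14.28, 12.23, 13.55 and 13.59 in the control (-0.24 ± 0.49, adjusted p = 0.808, turning to 0.70 with median centring, adjusted p = 0.33). Its second probe gave 0.34 ± 0.40 (adjusted p = 0.651), so the 2 probes differed in sign. Downstream ADAMTS1 read 14.98, 13.19, 12.84 and 13.13 at day 5 and 13.75, 13.76, 11.69 and 13.53 at day 14. At the anastomosis at day 14 it read 13.14, 14.06, 11.91 and 12.32, against 13.05, 12.53, 13.55 and 13.67 in the control (-0.34 ± 0.49, adjusted p = 0.729, turning to 0.46 with median centring, adjusted p = 0.507).

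ADAMTS5, the main aggrecanase in mice, was higher downstream than in the control in 4 of 4 numbers at day 14, reading 8.88, 10.99, 8.89 and 10.03, against 7.69, 10.39, 8.52 and 7.87 in the control. The groups overlapped through control replicate 2, and the difference was 1.08 ± 0.42 (adjusted p = 0.241). ADAMTS16 read 6.31, 6.34, 7.44 and 7.55 downstream at day 14, against 6.06, 6.39, 6.27 and 5.99 in the control, of which only replicate 3 was well above background. The difference was 0.73 ± 0.18 (adjusted p = 0.0771), and replicates 3 and 4 were the high downstream samples. Without downstream replicate 2 the difference was 0.94 (adjusted p = 0.0405). Without control replicate 2, ADAMTS16 was 0.92 ± 0.18 higher downstream (adjusted p = 0.0221) and 0.71 ± 0.18 higher at the anastomosis (adjusted p = 0.0260). ADAMTS20 was well above background in 6 samples and moved by at most 0.07 from the control.

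Of the 3 cathepsins, CTSD was called in 3 comparisons. CTSD, the aspartic protease of lysosomes, read 13.21, 13.04, 13.86 and 13.52 at the anastomosis at day 5, against 12.10, 11.94, 12.02 and 12.53 in the control. The groups did not overlap, and the difference was 1.26 ± 0.30 (adjusted p = 0.00944). Downstream at day 5 it read 12.34, 14.04, 13.90 and 13.47, and only replicate 1 fell within the control range (1.29 ± 0.30, adjusted p = 0.0207).

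At day 14, CTSD read 13.60, 13.87, 13.10 and 14.39 at the anastomosis, 11.56, 11.91, 12.66 and 13.23 downstream, and 11.39, 11.94, 12.15 and 12.49 in the control. The anastomosis lay above every control (1.75 ± 0.30, adjusted p = 0.00479), while the downstream samples overlapped them (0.35 ± 0.30, adjusted p = 0.633). Without replicate 4 the adjusted p of the 3 calls was 0.0649 at the anastomosis at day 5, 0.0893 there at day 14 and 0.148 downstream at day 5.

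Markers of several cell types differed from the control in the comparisons that called CTSD. Of 10 macrophage markers tested, 3 were higher at the anastomosis than in the control at day 5 and 5 at day 14, and 4 were higher downstream at day 5 and 0 at day 14, with none lower. Their mean log2 level was 11.85 to 12.38 at the anastomosis and 12.07 to 12.41 downstream at day 5, against 11.43 to 11.65 in the control. At day 14 it was 12.33 to 12.76 at the anastomosis and 10.73 to 12.51 downstream, against 10.82 to 11.68 in the control. Of 7 proliferation markers, 6 were higher at the anastomosis at day 5 and 5 downstream, with median differences of 2.81 and 1.92, and 0 at day 14 at either site. Their mean level at day 5 was 11.53 to 12.33 at the anastomosis and 10.12 to 11.38 downstream, against 9.16 to 9.52 in the control. Of 3 mast cell markers, 2 were higher at the anastomosis on each day, and downstream 0 at day 5 and 1 at day 14. Of 7 endothelial markers, 3 and 2 were higher at the anastomosis at day 5 and day 14, and 3 and 1 downstream. Of 9 T and NK cell markers, 2 were higher at the anastomosis at day 14 and 0 in the other 3 comparisons. The part of these cells in the CTSD, MMP12 and ADAM results was not tested.

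CTSH, a lysosomal aminopeptidase, was 0.63 ± 0.37 over the control at the anastomosis at day 5 and 0.80 ± 0.37 at day 14 (adjusted p = 0.282 and 0.198). It read 13.17 to 14.46 at the anastomosis at day 5, against 11.96 to 15.02 in the control, whose replicate 4 was the highest sample. CTSF differed from the control by -0.35 ± 0.17 at the anastomosis at day 5 (adjusted p = 0.185) and was lower there in 4 of 4 numbers, but with median centring it turned to 0.69 (adjusted p = 0.0227). The 2 CTSH probes gave the same difference at day 5, and are shown because they read almost the same stretch. Capitals mark the longest run of 31 bases that both share.
CTSH, probe used: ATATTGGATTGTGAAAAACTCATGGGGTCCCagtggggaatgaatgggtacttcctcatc
CTSH, other probe: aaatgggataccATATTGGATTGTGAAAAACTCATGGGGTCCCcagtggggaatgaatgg

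Of the 7 serpins tested, SERPINF1 was lower at the anastomosis than in the control at day 5, and none was called at day 14 or downstream. SERPINF1, pigment epithelium-derived factor, a serpin without known protease inhibition that restrains vessel growth, read 15.18, 15.44, 16.15 and 16.15 at the anastomosis at day 5, against 17.36, 16.92, 17.20 and 17.61 in the control. Every anastomosis sample lay below every control, and it fell by 1.54 on the log2 scale (SE 0.39, adjusted p = 0.0131), or 2.91-fold. Its second probe fell by 1.38 (SE 0.40, adjusted p = 0.0244). When arrays were centred on the median in place of loess, the first difference was only -0.19 (adjusted p = 0.743).

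Downstream at day 5, SERPINF1 read 16.17, 16.40, 16.16 and 15.93, also below every control, with a difference of -1.10 ± 0.39 that did not pass (adjusted p = 0.0919) and turned to 0.10 with median centring (adjusted p = 0.883). At day 14 it read 15.68, 16.12, 15.42 and 15.55 at the anastomosis, 16.99, 14.91, 16.33 and 16.97 downstream, and 15.90, 16.67, 17.08 and 16.99 in the control (anastomosis over control -0.97 ± 0.39, adjusted p = 0.137, turning to 0.13 with median centring, adjusted p = 0.819). The second probe, shown as another stretch of the same gene read on the same arrays with the same dyes, had 2 frames without a stop codon. Its difference with median centring was not fitted.
SERPINF1, second probe: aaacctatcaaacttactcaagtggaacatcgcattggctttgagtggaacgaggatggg

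Contractile smooth muscle markers fell with SERPINF1 at day 5. Of 8 tested, 7 were lower at the anastomosis and 4 downstream, with a median difference of -2.24 and -2.22 log2 units. Their mean level was 12.32 to 13.85 at the anastomosis and 12.22 to 14.14 downstream, against 14.86 to 15.57 in the control. Mean levels of fibroblast, skeletal muscle and adipocyte markers were also lower at the anastomosis, though the adipocyte ranges overlapped. All these marker levels are after loess. They were not computed with median centring, which shrank the SERPINF1 difference. The 5 fibroblast markers read 14.45 to 15.13 at the anastomosis and 14.78 to 15.44 downstream, against 15.4 to 15.91 in the control. The 9 skeletal muscle markers read 6.65 to 6.93 and 6.67 to 7.45, against 7.17 to 7.63. The 10 adipocyte markers read 9.26 to 10.42 and 9.8 to 11.47, against 10.14 to 11.93. The part of these cells in the SERPINF1 result was not tested.

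Among the other serpins, SERPING1, the inhibitor of complement C1, read 15.25, 15.86, 15.86 and 15.82 at the anastomosis at day 5, against 16.02, 16.28, 16.23 and 16.24 in the control. The groups did not overlap, and the difference was -0.49 ± 0.19 (adjusted p = 0.0831), with its 2 other probes at -0.54 and -0.33. With median centring SERPING1 turned to 0.79 (adjusted p = 0.0092), so its direction differed between the 2 normalizations. SERPINB9, the granzyme B inhibitor, SERPINB10, the corticosteroid carrier SERPINA6, alpha-1-antitrypsin (SERPINA1) and antithrombin (SERPINC1) differed from the control by at most 0.28 log2 units. SERPINA1 and SERPINC1, known mainly as liver products, were well above background in 17 and 10 of the 24 samples.

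The comparison of anastomosis and downstream vein, 2 sites of the same grafted vein, called 0 of the 29 genes on either day and 0% of all features. No member's groups were free of overlap on either day, against 2.06% of all features at day 5 and 1.87% at day 14. At an unadjusted p under 0.05, 3 differed at day 5 and 5 at day 14, against 10% and 14.1% of all features. The greatest day 14 differences with a small unadjusted p were those of ADAM28, 1.69 ± 0.32 higher at the anastomosis in 4 of 4 numbers (adjusted p = 0.111), MMP1, 1.84 ± 0.59 higher in 4 of 4 (adjusted p = 0.213), and CTSD, 1.40 ± 0.30 higher in 4 of 4 (adjusted p = 0.117). Without replicate 3, ADAM28 was 2.11 higher (adjusted p = 0.0132) and CTSD 1.72 higher (adjusted p = 0.0381). With only the anastomosis sample of that number left out they were 2.09 and 1.69 higher (adjusted p = 0.00382 and 0.0164), and 441 of all features were then called higher and 237 lower. MMP9 was 1.90 ± 1.20 and MMP14 1.11 ± 0.34 higher at the anastomosis at day 14 (adjusted p = 0.497 and 0.2).

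At day 5 the anastomosis was 1.28 ± 0.54 over downstream for TIMP1 and 1.31 ± 0.59 for MMP1 (adjusted p = 0.475 and 0.492). MMP7 was lower by -1.68 ± 0.84 (adjusted p = 0.516) and MMP9 was 1.06 ± 1.08 higher (adjusted p = 0.775). Replicate 4 of TIMP1 read 14.88 at the anastomosis and 14.94 downstream, the only number in which it was not higher at the anastomosis.

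Between the days, no member was called in any of the 3 sites. The labels do not tie a number to 1 animal between the days, so the counts by number below are not counts of known pairs. Day 5 and day 14 were scanned in different runs in replicates 1 to 3, so day and scan run cannot be told apart there. All features gave 2 calls at the anastomosis (0.00596%, or 0.00298% higher and 0.00298% lower) and 0% downstream and in the control, and at an unadjusted p under 0.05 the members numbered 3 at the anastomosis, 2 downstream and 0 in the control, against 8.29%, 4.48% and 1.92% of all features. Every member's days overlapped at each site, against 4.67%, 2.34% and 1.20% of all features free of overlap at the anastomosis, downstream and in the control. At the anastomosis TIMP1 was lower at day 14 than at day 5 in 4 of 4 numbers, by -1.99 ± 0.62 (adjusted p = 0.426), and MMP12 higher in 4 of 4, by 1.92 ± 0.63 (adjusted p = 0.436). MMP9 and MMP2 were 1.36 ± 0.92 and 0.62 ± 0.45 higher at day 14 (adjusted p = 0.813 and 0.830).

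Downstream, ADAM28, CTSD and TIMP1 were lower at day 14 than at day 5 in 4 of 4 numbers, by -1.39 ± 0.42, -1.10 ± 0.47 and -1.41 ± 0.67 (adjusted p = 1 for each), and MMP12 was 1.70 ± 0.97 higher (adjusted p = 1). In the control the greatest differences between day 14 and day 5 were those of MMP14, given above, ADAM8 (0.72 ± 0.56), MMP9 (0.66 ± 0.74) and SERPINF1 (-0.61 ± 0.28), all with an adjusted p of 1.

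The change in each site difference between the days, in which a constant dye shift cancels, called 0 of 29 members and 0% of all features in each of 3 contrasts. At an unadjusted p under 0.05, 3 members differed in each, against 8.33% of all features for anastomosis over control, 7.52% for downstream over control and 4.16% for anastomosis over downstream. For anastomosis over control, TIMP1 changed by -1.75 ± 0.77 and MMP12 by 1.74 ± 1.09 from day 5 to day 14 (adjusted p = 0.570 and 0.741). For downstream over control, ADAM28 changed by -1.51 ± 0.45, MMP12 by 1.52 ± 1.09, TIMP1 by -1.16 ± 0.77 and ADAM8 by -1.16 ± 1.02 (adjusted p = 0.656, 0.760, 0.740 and 0.812). For anastomosis over downstream, ADAM28 changed by 1.56 ± 0.45 and CTSD by 1.43 ± 0.42 (adjusted p = 0.984 for both), MMP14 by 0.84 ± 0.49 and MMP9 by 0.84 ± 1.61.

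Other genes of matrix and clot proteolysis gave a context. Of 14 tested genes of the plasminogen and thrombin system, 3 were higher and 3 lower at the anastomosis than in the control at day 5, 3 and 2 at day 14, and downstream 4 and 1 at day 5 and 1 and 0 at day 14. PLAU, the urokinase that activates plasminogen, was 2.38 ± 0.44 and 1.81 ± 0.44 higher at the anastomosis at day 5 and day 14 (adjusted p = 0.00245 and 0.0233). ANXA2, a cell-surface receptor of plasminogen, was 0.72 ± 0.15 higher at day 5 (adjusted p = 0.00532), while prothrombin, F2, was -1.79 ± 0.27 lower (adjusted p = 9.90e-04).

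Of 10 other matrix and cell-surface proteases, 3 were higher and 1 lower at the anastomosis than in the control on each day, and downstream 0 and 1 at day 5 and 0 and 0 at day 14. ADAMDEC1, a relative of ADAM28 found in macrophages, was 2.46 ± 0.58 higher at day 5 (adjusted p = 0.00885) and 2.47 ± 0.58 at day 14 (adjusted p = 0.0190). Of 15 inhibitors outside the serpins and TIMPs, 2 were lower at the anastomosis at day 5, the calpain inhibitor CAST and the cathepsin inhibitor CST3, and 2 were higher at day 14. CST3 was -0.69 ± 0.22 at day 5 and 0.82 ± 0.22 at day 14 (adjusted p = 0.0385 and 0.0319), and CSTB 1.24 ± 0.30 at day 14 (adjusted p = 0.0237).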

How the data were processed

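Gene expression was measured in 24 vein samples, 4 in each of 6 groups, on 16 arrays with 43603 pig probes, and 8 Cy3 channels with no sample were not used. The deposited scanner files hold spot intensities that, per the file headers, Feature Extraction 10.5.1.1 wrote. The series' deposited value table holds log2 values (correlation of each column with its scanner values 0.922 to 0.959, column medians 7.34 to 7.42), and its normalization and centring stay unknown. It served as an alternative only. No genome build is named, so no coordinates are printed.

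Mean signals were corrected against the local background median by normexp with an offset of 50, normalized by loess within arrays and Aquantile between them, and split into channels with limma 3.58.1 in R. Control spots and outlier spots did not enter the loess fit, but did enter the background correction and the Aquantile step. Control spots and spots that were outliers in the sample's own channel were left out of the values. Repeat spots were averaged. Each symbol was represented by its brightest probe, and probes well above background in at least 4 samples were tested. Symbols came from the files and from RefSeq accessions. Site comparisons were fitted over all groups with replicate number and day as a block, giving 12 residual degrees of freedom, and day comparisons without a block. limma's moderated test was adjusted by the Benjamini-Hochberg method over 33538 features in each of 12 comparisons. Fitted differences are log2 units with their SE. The fit was tested on simulated data.

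Control and anastomosis samples of a number and day shared an array, so that comparison was within arrays, while downstream samples were on other arrays. The block was used for that reason. Samples of the same number and day also deviated together on different arrays in 16 of 16 pairs (r 0.192 to 0.758). Between days, samples of the same site and number had an r over 0.1 in 11 of 12 pairs (0.075 to 0.623). Nothing in the labels says that a number marks 1 animal. P-values of the site comparisons measure the spread left after the block is taken out, shared over all groups. Those of the day comparisons measure the spread between samples of the same site and day. Replicates 1 and 2 and replicates 3 and 4 differ in protocol version, and scan runs are tied to replicate numbers. In replicates 1 to 3 scan runs are also tied to day, while both days of replicate 4 were scanned in the same run.

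Genes given in full were those past the threshold in each comparison, in a comparison with fewer than 4 the greatest differences up to 4, the TIMPs, and MMP2, MMP9, MMP14, ADAM10, ADAM17 and ADAMTS1. 1 further gene that the choice by symbol takes entered every fit and is not reported here. The members, the gene lists and these choices were made with earlier results of these data known. Alternatives were other background corrections and normalizations, the deposited table, no filter, the mean of all probes, other blocks, other samples in the fit, and leaving out replicates.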

Additional observations from a re-analysis of the deposited data

Results flagged for a closer look

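For 16 genes the 4 samples of each group were screened for 1 sample far from the rest, by the gap to its neighbour as a share of the group's range. Of 95 groups with 4 values, 4 passed Dixon's critical value, and chance flags about 1 group in 20. ADAMTS1 read 11.69 in downstream replicate 3 at day 14, below 13.53 to 13.76 in the other 3, and 14.98 in downstream replicate 1 at day 5, above 12.84 to 13.19 in the others. MMP14 read 15.22 in anastomosis replicate 2 at day 14, below 15.71 to 15.77 in the others. MMP9 read 12.57 in jugular control replicate 1 at day 5, above 10.46 to 10.76 in the others. The first of these samples, downstream replicate 3 at day 14, also held the highest downstream levels of MMP9 and MMP12 at that day, 15.12 and 11.44.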

How the results depend on the processing

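All 12 calls kept their sign in every refit that held them, and all 12 passed with processed signals, no background correction, single-channel quantiles, the mean of all probes of a gene and the deposited table. With median centring 11 passed, with no filter on dim probes 11, with only the groups compared 8 and with no replicate block 7. The refits without control replicate 2, anastomosis replicate 3 or downstream replicate 2 or 4 at day 14 and with the deposited table limited to replicates 1 to 3 (9 of 12) were chosen after seeing the data. Where a count or value moved, the cause was not tested.

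For anastomosis over control at day 5, 7 members were called in the main setting. The number was 13 with the deposited table, 14 with median centring, 12 with only the groups compared, 4 with no replicate block, 0 in replicates 1 and 2 alone and 3 in replicates 3 and 4 alone, and 3 to 6 with 1 replicate number left out (3 without numbers 1, 3 and 4 in turn). Over all 33538 features the main setting called 3041 higher and 3445 lower. The deposited table called 4178 and 4434, median centring 8927 and 2122, and only the groups compared 4344 and 5013. With no replicate block the calls were 1060 and 1236. At day 14, 3 members were called. The number was 7 with the deposited table, 16 with median centring, 5 with no background correction, 6 with processed signals and 6 with single-channel quantiles, 0 with only the groups compared and 0 in replicates 1 and 2 alone, and 1 to 6 with samples left out (1 without number 4, 5 without anastomosis replicate 3, 6 without control replicate 2). All features gave 1596 higher and 1352 lower in the main setting and 1904 and 1851 with the deposited table. Median centring gave 10304 and 3473, and only the groups compared 39 and 18. Downstream at day 5, 2 members were called. The number was 5 with the deposited table, 1 with its replicates 1 to 3, 12 with median centring, 1 with no replicate block, 4 with only the groups compared, 0 in replicates 1 and 2 alone, and 0 to 2 with 1 number left out (0 without number 3 and without number 4, 1 without number 2). All features gave 1072 higher and 1679 lower in the main setting, 2797 and 3850 with the deposited table, and 7200 and 1459 with median centring. At day 14 downstream, 0 members were called. The number was 12 with median centring, 1 with no background correction, 1 in replicates 3 and 4 alone, and 0 to 1 with samples left out (1 without number 2, without downstream replicate 2 and without control replicate 2). Anastomosis over downstream at day 14 gave 0 to 2 with samples left out (2 without number 3 and without anastomosis replicate 3 alone), and day 14 over day 5 at the anastomosis gave 3 with the deposited table, where the count was 0. With the replicate block the day comparisons still called 0 members, and with no replicate block anastomosis over downstream still called 0 on both days. Over all features, median centring called 7855 higher and 2299 lower downstream at day 14, where the main setting called 213 and 92. Anastomosis over downstream at day 14 gave 293 and 155 without number 3. Day 14 over day 5 at the anastomosis gave 1478 and 1627 with the deposited table.

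Among the genes named by rule in each comparison, the values that changed sign were uncalled differences of MMP9, ADAM8 and MMP12. Over all 29 members, the sign changes that reached an adjusted p under 0.05 came with median centring: SERPING1 at the anastomosis (0.79) and downstream (0.97) at day 5, and CTSF at the anastomosis at day 5 (0.69) and downstream at day 5 (0.77) and day 14 (0.63), all below 0 with loess. For MMP9, anastomosis over downstream was -0.15 at day 14 in the deposited table's replicates 1 to 3, and -0.22 to 1.72 at day 5 with 1 number left out. Day 14 over day 5 for MMP9 was -0.95 (deposited table) and -0.28 (its replicates 1 to 3) at the anastomosis, and in the control -0.14 (deposited table) and -0.11 to 1.23 with 1 number left out. Its day change of anastomosis over downstream was -0.66 (deposited table), -1.47 (its replicates 1 to 3) and 0 to 1.99 with 1 number left out. Downstream over control at day 14 was -1.56 for MMP9 in replicates 1 and 2 alone and -0.49 to 2.03 with 1 number left out. For ADAM8, day 14 over day 5 in the control was 0 in replicates 3 and 4 alone and 0 with scan as a block, and its day change of downstream over control was 0.03 in replicates 3 and 4 alone. The MMP12 day change of anastomosis over control was -0.31 with the deposited table.

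The number of arrays, and for MMP1, MMP12, ADAMTS16 and ADAMTS20 a signal near background, limit the precision.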

Other observations

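A further 13 genes of the same families are on the array under an accession or locus number only, so that the choice by symbol did not take them. They were looked at after the results for the named genes were known, and 12 were tested. CTSC, the dipeptidyl peptidase that activates granule serine proteases, was 2.64 ± 0.54 log2 units higher at the anastomosis than in the jugular control at day 5 (limma, adjusted p = 0.00427) and 2.02 ± 0.54 higher downstream (adjusted p = 0.0358). CTSS, an elastin-cutting cathepsin of macrophages, was 1.26 ± 0.35 and 1.49 ± 0.35 higher at the anastomosis at day 5 and day 14 (adjusted p = 0.0215 and 0.0196) and 1.30 ± 0.35 higher downstream at day 5 (adjusted p = 0.0369). ADAM9, another membrane sheddase, was 1.14 ± 0.33 higher at the anastomosis at day 5 (adjusted p = 0.0270). None of the 12 passed between anastomosis and downstream vein, between the days, or downstream at day 14.

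The probes used for the 35 genes had a GC content of 35.0% to 55.0%. Of these, 28 had at least 1 frame without a stop codon (80%), against 76.0% of all 43603 probes, and 9 contained AATAAA (25.7%), against 12.1% of all probes.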
